A study of Mus musculus with 24 samples.

Results

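Mouse brain tumours that had received the immunotoxin D2C7-IT were compared with tumours that had received the control infusion, at the end of the infusion. The comparison holds 6 of the series' 24 libraries: the 3 tumours labelled D2C7-IT, day 0, against the 3 labelled vehicle, day 0, and all genes were examined. Later paragraphs also use tumours given an antibody to CD40, alone or with D2C7-IT, and tumours taken 3 days after the pumps came out. Every tumour was grown from CT-vIII cells, the mouse glioma line CT-2A transduced with mouse EGFR variant III and firefly luciferase, placed in the right hemisphere. On day 6 after implantation a pump began to deliver its load into the brain by convection, at 0.5 µl per hour for 72 hours, and on day 9 the pump was taken out and the tumour collected at once (day 0). The D2C7-IT pumps carried 0.2 µg of D2C7, and the vehicle pumps carried 100 µg of the control antibody rat IgG2a, in phosphate-buffered saline that held mouse serum albumin at 2%. The sources used here do not say whether albumin or control antibody was also in the D2C7-IT pumps, so effects of the toxin and of those components cannot be told apart. Polyadenylated RNA of flash-frozen, unsorted tissue was sequenced, so each value mixes glioma, brain, immune, vessel and blood cells. In such bulk samples fewer cells of a type and less RNA per cell cannot be told apart. Age, sex and strain of the mice are details not given in the sources used here.

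D2C7-IT joins an antibody fragment that recognises the epidermal growth factor receptor and its variant III to a part of Pseudomonas exotoxin A. Inside a cell the toxin transfers ADP-ribose to diphthamide, a modified histidine of elongation factor 2, which stops protein synthesis and kills the cell. Blocked translation, dying cells and wounded brain are each known to switch on early inflammatory genes through NF-kB, AP-1 and STAT3. Among the products of such genes are ligands of the chemokine receptor CXCR2, which draw neutrophils, and IL-6 family cytokines, which make astrocytes reactive.

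The 6 libraries held 24.7 to 47.8 M counted reads (1 M is 1000000 reads), with a median of 37.5 M, and mitochondrially encoded genes took 2.69 to 3.24% of them. Levels are given in CPM (a gene's count over its library's total, per 1000000 reads), for replicates 1, 2 and 3 in that order. On the first principal component, which took 46.3% of the variance, the D2C7-IT tumours lay at 43.6, 47.8 and 16.2 and the vehicle tumours at -3.90, -15.0 and -88.7. Vehicle replicate 3, the shallowest library, stood apart on this component. On the second, which took 26.9%, the D2C7-IT tumours lay at 26.5, -5.27 and -54.6 and the vehicle tumours at -15.3, 57.3 and -8.73, so D2C7-IT replicate 3 and vehicle replicate 2 lay at its ends. In vehicle replicate 3, 18 cell cycle genes summed to 70.1 CPM, against 286 and 109 CPM in vehicle replicates 1 and 2, and in the D2C7-IT tumours they summed to 206, 231 and 248 CPM. Neuron markers, 13 genes, summed to 7910, 9170 and 11000 CPM in D2C7-IT tumours and to 11200, 8750 and 12900 CPM in vehicle tumours. The part of tissue makeup in the differences below was not tested.

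In D2C7-IT tumours 86 genes rose and 1 fell relative to vehicle tumours, and 44 of these 87 genes stood in 1 of the 58 gene lists examined. The steepest increases among them were of the CXCR2 ligands Cxcl2 and Cxcl1, the growth factor Ereg, the protease Mmp3, the metalloreductase Steap4, the cytokine Il6 and the pattern-binding protein Ptx3. The gene that fell was Grin2c, which encodes the GluN2C subunit of the NMDA glutamate receptor. Genes were tested with edgeR's quasi-likelihood test on the 6 libraries, and genes with a p under 0.05 after Benjamini-Hochberg adjustment over the 19627 genes tested are termed called. The 87 calls were 0.443% of genes tested (0.438% higher and 0.0051% lower). At an unadjusted p under 0.05, 7.92% of genes were higher and 2.97% lower, and 51.0% of all log2 fold changes were above 0, with a median of 0.0062. Among the calls 84 genes encode proteins, 79 were at least 2-fold higher, 57 at least 4-fold and 20 at least 16-fold. For all 87 the 3 D2C7-IT tumours and the 3 vehicle tumours did not overlap, a pattern that 14.5% of genes tested showed in the higher and 3.98% in the lower direction.

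**Figure D1:**
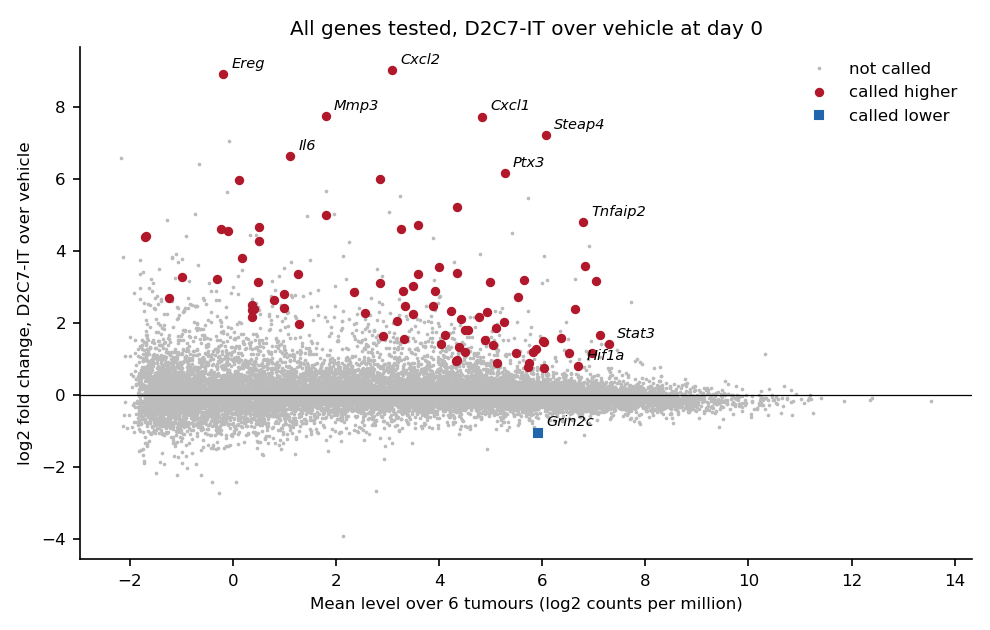
Each point is 1 of 19627 genes tested, with its mean level over the 6 tumours (log2 CPM) on the horizontal axis and the log2 fold change of D2C7-IT over vehicle on the vertical axis. The 86 genes called higher (red circles) lie across the range of levels, and Grin2c (blue square) is the 1 gene called lower.

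The number of calls depended on which libraries entered the fit. It was 18 with the spread estimated over all 24 libraries of the series, of which 16 were among the 87, and 10 with the 12 day 0 libraries, all among the 87. Leaving out D2C7-IT replicate 1, 2 or 3 left 19, 6 or 7 calls. Leaving out vehicle replicate 1 gave 312 calls, leaving out replicate 3 gave 12 with 10 of the 87 among them, and without replicate 2 edgeR called 0 genes, with 1992 at an unadjusted p under 0.05. DESeq2 called 685 genes on the same 6 libraries, among them all 87. The adjusted p-values of most called genes lay between 0.03 and 0.05. Called in 5 of the 6 fits that left out a library were 5 genes: Cxcl1, Cxcl2, Fas, Ier3 and Steap4. Of the 87, 57 were called in exactly 1 of those fits and 9 in 0. Called with 6, with 12 and with 24 libraries were 5 genes: Angptl4, Creb3l1, Mmp3, Vwf and the predicted gene Gm10309.

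**Figure D2:**
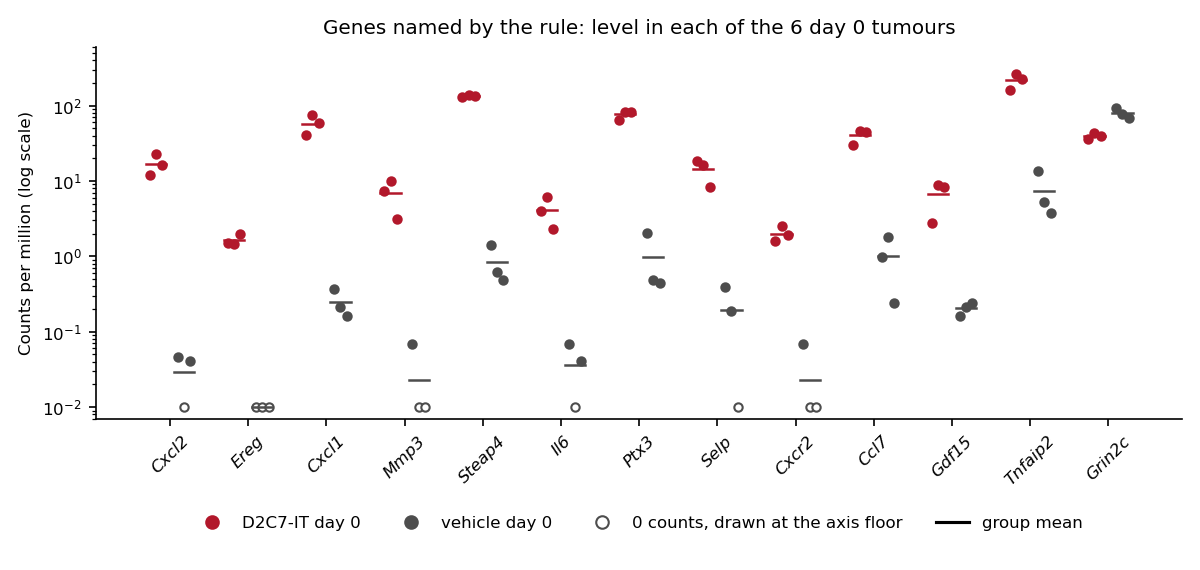
Points are the CPM of 13 genes in each of 3 D2C7-IT tumours (red, left of each pair) and 3 vehicle tumours (grey, right) on a log axis, with group means as lines and tumours without a count as open points at the lower end of the axis. In the first 12 genes all D2C7-IT tumours lie above all vehicle tumours, and in Grin2c all lie below.

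The CXCR2 ligands Cxcl1 and Cxcl2 and the receptor gene Cxcr2 rose, and vehicle tumours held few reads of these genes. Of 7 listed genes 5 were tested, 3 rose (Cxcl1, Cxcl2 and Cxcr2), and the median log2 fold change was 5.98, against 0.0062 over all genes tested. Cxcl2, Cxcr2 and Cxcl3, near 0 in vehicle tumours, passed the filter on read counts only through the D2C7-IT group. The filter thus pushes this median up, and its size is no support for a change of the list. Cxcl1 (chromosome 5, 90891241 to 90893115, build GRCm38), a neutrophil attractant, held 40.5, 74.0 and 58.5 CPM in D2C7-IT tumours, against 0.37, 0.215 and 0.162 CPM in vehicle tumours. The lowest D2C7-IT tumour was far above the highest vehicle tumour, and the log2 fold change was 7.73 ± 0.39 (SE, adjusted p = 0.0056 with edgeR, n = 3 each). Cxcl2 (chromosome 5, 90903871 to 90905938), its close paralog, held 12, 22.5 and 16.4 CPM in D2C7-IT tumours, against 0.0462, 0 and 0.0405 CPM in vehicle tumours (log2 fold change 9.02 ± 0.57, edgeR adjusted p = 0.0073). The vehicle libraries held 3 Cxcl2 reads in all and the D2C7-IT libraries 2056, a ratio of 612 with an exact 95% interval of 209 to 2970 that covers counting error only. Reads of Cxcl1 and Cxcl2 can be split between the similar copies, which leaves their separate sizes uncertain. Cxcr2 (chromosome 1, 74153989 to 74161246), the receptor of these ligands on neutrophils, held 1.58, 2.55 and 1.90 CPM in D2C7-IT tumours and 0.0693, 0 and 0 CPM in vehicle tumours, a ratio of 72.3 (24.4 to 353) from 243 and 3 reads (edgeR adjusted p = 0.037). Cxcl3 was not called, at 0.29, 0.376 and 0.281 CPM in D2C7-IT tumours and 0.0231, 0.0269 and 0 CPM in vehicle tumours (adjusted p = 0.064), and neither was Cxcl5, at 3.93, 4.70 and 11.6 CPM in D2C7-IT tumours and 1.83, 0.754 and 2.83 CPM in vehicle tumours (adjusted p = 0.35).

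The promoters of the 2 chemokines are shown because both hold the same kappaB letters, the sequence class that NF-kB binds, close to the start of the gene. Each window runs from 250 bases before to 50 bases after the RefSeq start (GRCm38.p6, plus strand), at chr5:90890995-90891294 for Cxcl1 and chr5:90903649-90903948 for Cxcl2, and capitals mark the overlapping kappaB matches of both strands.
Cxcl1: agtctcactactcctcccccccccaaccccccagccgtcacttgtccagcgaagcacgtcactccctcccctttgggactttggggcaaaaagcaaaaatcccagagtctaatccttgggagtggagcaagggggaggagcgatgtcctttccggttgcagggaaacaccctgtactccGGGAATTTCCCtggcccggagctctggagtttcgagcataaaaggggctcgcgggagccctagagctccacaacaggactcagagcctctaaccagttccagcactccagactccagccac
Cxcl2: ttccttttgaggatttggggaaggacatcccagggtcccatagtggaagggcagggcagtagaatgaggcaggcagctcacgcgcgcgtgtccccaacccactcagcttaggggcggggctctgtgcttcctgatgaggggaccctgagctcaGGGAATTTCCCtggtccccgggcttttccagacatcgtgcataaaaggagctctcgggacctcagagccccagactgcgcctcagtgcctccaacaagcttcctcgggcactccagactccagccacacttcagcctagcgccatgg
The forward match spans bases -71 to -62 from the start in Cxcl1 and -97 to -88 in Cxcl2. A match describes the letters and is not a measurement of binding.

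Around Cxcl1 on chromosome 5 the change was not shared by all neighbours. Ereg (91074622 to 91093646), which encodes the EGF receptor ligand epiregulin, held 1.5, 1.46 and 1.97 CPM in D2C7-IT tumours, while the vehicle libraries held 0 reads. Its 190 reads in D2C7-IT libraries put it at least 56.5-fold higher, against a floor of 3 reads over the vehicle group (edgeR adjusted p = 0.034). Between and beyond them, Mthfd2l had a log2 fold change of 0.02, Areg, another EGF receptor ligand, of -0.53 and Btc, also such a ligand, of 0.32, and none of the 3 was called. Pf4, the platelet chemokine, had a log2 fold change of 2.33 and was not called (edgeR adjusted p = 0.079).

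**Figure D3:**
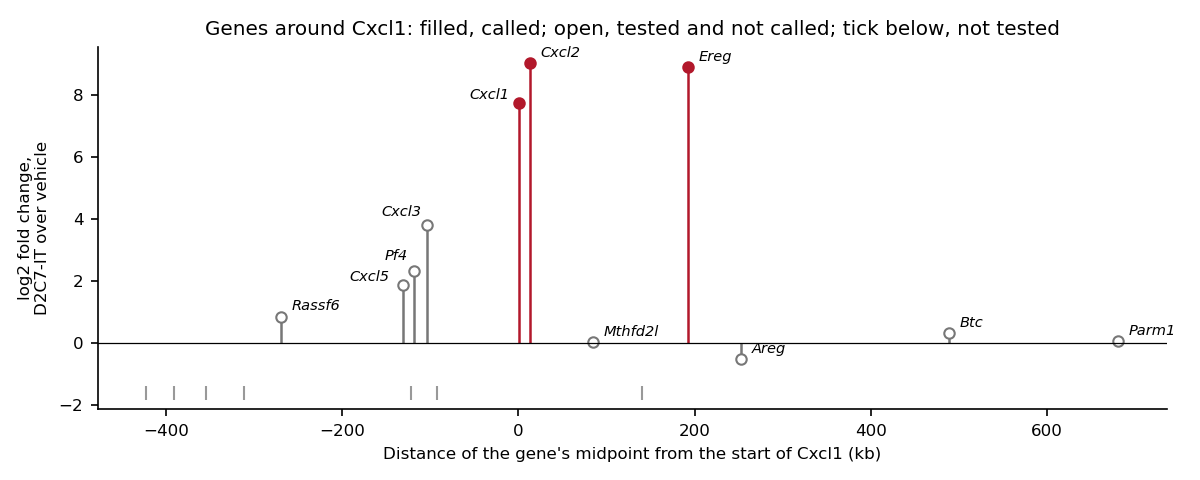
Log2 fold changes of D2C7-IT over vehicle are drawn for genes within 500000 bases of the region of Cxcl1, by distance of the gene's midpoint from the start of Cxcl1 in kb. Filled points (Cxcl1, Cxcl2, Ereg) were called, open points were tested and not called, and ticks mark genes too low to test.

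Neutrophil markers were present at low levels. Of 18 listed markers 6 were tested and 4 rose, namely Cxcr2, S100a8, S100a9 and Trem1, and the 6 had a median log2 fold change of 3.47. Cxcr2, S100a8 and Trem1, near 0 in vehicle tumours, passed the filter on read counts only through the D2C7-IT group, which pushes this median up. S100a8, a subunit of calprotectin, held 2.37, 2.17 and 1.47 CPM in D2C7-IT tumours, against 0.0462, 0.215 and 0.162 CPM in vehicle tumours (edgeR adjusted p = 0.047), and S100a9, the other subunit, held 1.98, 2.38 and 2.93 CPM in D2C7-IT tumours, against 0.139, 0.35 and 0.324 CPM in vehicle tumours (adjusted p = 0.042). Trem1, a receptor that amplifies inflammation in neutrophils and monocytes, held 1.16, 2.26 and 1.62 CPM in D2C7-IT tumours and 0.0924, 0.0269 and 0.081 CPM in vehicle tumours (log2 fold change 4.55 ± 0.51, adjusted p = 0.034). The 12 markers not tested include the defining Ly6g, at 0.0264, 0.0209 and 0 CPM in D2C7-IT tumours and 0 in all vehicle tumours, and the granule genes Mpo, Elane, Camp and Ngp, each under 0.5 CPM in all 6 tumours. The list summed to 43.2, 46.0 and 47.5 CPM in D2C7-IT tumours and 31.7, 15.2 and 11.4 CPM in vehicle tumours. Most of these sums was Csf3r, the G-CSF receptor, which microglia also express, at 31.7, 30.9 and 35.2 CPM in D2C7-IT tumours and 29.9, 13.1 and 10.4 CPM in vehicle tumours (adjusted p = 0.5).

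Chemokines that attract monocytes and lymphocytes gave 1 call among 17 of 19 tested, and a median log2 fold change of 1.18, or 0.76 without vehicle replicate 3. Ccl7 (chromosome 11, 82045712 to 82047525), a ligand of the monocyte receptor CCR2, held 29.8, 45.8 and 44.9 CPM in D2C7-IT tumours, against 0.993, 1.83 and 0.243 CPM in vehicle tumours (log2 fold change 5.21 ± 0.58, edgeR adjusted p = 0.034). Ccl2, another CCR2 ligand, held 80.2, 122 and 110 CPM in D2C7-IT tumours and 4.39, 1.99 and 0.243 CPM in vehicle tumours, groups that did not overlap, and it was not called (log2 fold change 5.46 ± 0.77, adjusted p = 0.056). Cxcl14, expressed in brain at rest, was lower in each D2C7-IT tumour, at 76.9, 71.7 and 82.1 CPM, than in the vehicle tumours, at 100, 110 and 103 CPM (adjusted p = 0.091, not called). Of the 4 genes of the CXCR3 axis, which draws T cells under interferon, 0 were called with edgeR and 2 had an unadjusted p under 0.05. Cxcl10 held 124, 143 and 109 CPM in D2C7-IT tumours and 19.1, 19.2 and 1.58 CPM in vehicle tumours (adjusted p = 0.2), while Cxcl9 held 2.58, 2.13 and 2.59 CPM in D2C7-IT tumours and 7.51, 1.99 and 1.09 CPM in vehicle tumours, within the spread of the vehicle group.

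Cytokine genes rose in 5 of 18 tested members of 20 listed (Il6, Lif, Tnf, Il1a and Csf1), with a median log2 fold change of 1.95. Il6 (chromosome 5, 30013114 to 30019981), the ligand that activates STAT3 through gp130, held 4.03, 6.15 and 2.31 CPM in D2C7-IT tumours, against 0.0693, 0 and 0.0405 CPM in vehicle tumours (log2 fold change 6.62 ± 0.74, edgeR adjusted p = 0.034). Lif, a second gp130 cytokine, held 17.2, 25.8 and 27.0 CPM in D2C7-IT tumours, against 1.48, 0.781 and 0.243 CPM in vehicle tumours (log2 fold change 4.70 ± 0.56, adjusted p = 0.037). In both genes the lowest D2C7-IT tumour exceeded the highest vehicle tumour. Tnf held 13.8, 29.4 and 12.3 CPM in D2C7-IT tumours and 1.09, 0.862 and 0.202 CPM in vehicle tumours, with an adjusted p that rounds to 0.05 and lies just under the threshold. Il1a, an alarmin of damaged cells, held 15.8, 28.1 and 22.8 CPM in D2C7-IT tumours, against 2.96, 2.21 and 1.05 CPM in vehicle tumours (log2 fold change 3.36 ± 0.41, adjusted p = 0.037). Csf1, the growth factor of microglia and macrophages, held 123, 197 and 184 CPM in D2C7-IT tumours, against 43.3, 27.6 and 23.2 CPM in vehicle tumours (log2 fold change 2.37 ± 0.29, adjusted p = 0.039). Not called were Il1b, at 13, 17.5 and 10.4 CPM in D2C7-IT tumours and 2.73, 0.943 and 0.283 CPM in vehicle tumours (adjusted p = 0.14), and Il12b, the p40 subunit of IL-12, with a log2 fold change of 4.98 ± 0.76 (adjusted p = 0.064). Interleukin 10, the inhibitory cytokine gene Il10, was too low to test, at up to 0.209 CPM in D2C7-IT and up to 0.393 CPM in vehicle tumours.

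The window of Il6 (GRCm38.p6, plus strand, chr5:30012864-30013163) is shown as the third promoter with a kappaB match near the start, at bases -44 to -35, in capitals.
Il6: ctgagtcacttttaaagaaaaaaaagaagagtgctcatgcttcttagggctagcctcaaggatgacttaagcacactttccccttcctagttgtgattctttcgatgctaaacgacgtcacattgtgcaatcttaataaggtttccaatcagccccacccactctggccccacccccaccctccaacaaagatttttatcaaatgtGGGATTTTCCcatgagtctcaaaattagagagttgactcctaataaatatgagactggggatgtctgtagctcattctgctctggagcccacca
It also held an AP-1 match (TGANTCA) at bases -249 to -243.

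Receptors and targets of the IL-6 family gave 4 calls among 16 tested (Osmr, Stat3, Cebpd and Lrg1), all higher, with a median log2 fold change of 1.46. Stat3, the transcription factor of this pathway, held 218, 250 and 223 CPM in D2C7-IT tumours, against 91.8, 93.2 and 66.6 CPM in vehicle tumours (log2 fold change 1.41 ± 0.14, edgeR adjusted p = 0.031). Osmr, the oncostatin M receptor, held 40.3, 52.5 and 43.7 CPM in D2C7-IT tumours, against 12.3, 11 and 6.07 CPM in vehicle tumours (log2 fold change 2.17 ± 0.26, adjusted p = 0.037). Lrg1, a secreted glycoprotein induced by STAT3, held 22.4, 18.4 and 15.3 CPM in D2C7-IT tumours, against 4.09, 3.77 and 3.64 CPM in vehicle tumours (log2 fold change 2.23 ± 0.17, adjusted p = 0.013). The vehicle tumours lay close together in Lrg1 and all below the D2C7-IT tumours. Cebpd, a transcription factor of the acute phase, had a log2 fold change of 2.73 ± 0.35 (adjusted p = 0.042). Socs3, which feeds back on STAT3, held 45.6, 44.6 and 46.3 CPM in D2C7-IT tumours and 16, 6.98 and 4.86 CPM in vehicle tumours, and vehicle replicate 1 stood between the other vehicle tumours and the D2C7-IT tumours (adjusted p = 0.1, not called). The gp130 gene Il6st (log2 fold change 0.50) and Lifr (0.00) were not called.

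Among NF-kB genes the inhibitors Tnfaip3 and Nfkbia rose, with Tnfaip2 and Relb. All 22 members were tested and had log2 fold changes above 0, with a median of 1.56, 21 of them at an unadjusted p under 0.05 (median 1.41 without vehicle replicate 3), and 4 rose by the adjusted test: Tnfaip2, Tnfaip3, Relb and Nfkbia. Tnfaip2 (chromosome 12, 111442469 to 111455018), a TNF-induced gene, held 163, 262 and 226 CPM in D2C7-IT tumours, against 13.4, 5.25 and 3.77 CPM in vehicle tumours (log2 fold change 4.80 ± 0.53, edgeR adjusted p = 0.034). Tnfaip3, which encodes the inhibitor A20, held 60.8, 125 and 86.4 CPM in D2C7-IT tumours, against 13.7, 6.55 and 8.66 CPM in vehicle tumours (log2 fold change 3.18 ± 0.38, adjusted p = 0.037). Nfkbia, which encodes IkB-alpha, the inhibitor that holds NF-kB in the cytoplasm, held 80.0, 106 and 108 CPM in D2C7-IT tumours, against 37.9, 34.2 and 31.4 CPM in vehicle tumours (log2 fold change 1.46 ± 0.15, adjusted p = 0.031). In each of these inhibitors the groups were separate, with D2C7-IT replicate 1 the lowest of its group. Relb, a subunit of the non-canonical pathway, had a log2 fold change of 1.80 ± 0.23 (adjusted p = 0.042), and the member nearest to no change was Traf3, at 0.04.

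The Nfkbia window (GRCm38.p6, minus strand, chr12:55492598-55492897) shows the kappaB match of an inhibitor that its own target factor induces, at bases -29 to -20, in capitals and written 5′ to 3′ on the gene's strand.
Nfkbia: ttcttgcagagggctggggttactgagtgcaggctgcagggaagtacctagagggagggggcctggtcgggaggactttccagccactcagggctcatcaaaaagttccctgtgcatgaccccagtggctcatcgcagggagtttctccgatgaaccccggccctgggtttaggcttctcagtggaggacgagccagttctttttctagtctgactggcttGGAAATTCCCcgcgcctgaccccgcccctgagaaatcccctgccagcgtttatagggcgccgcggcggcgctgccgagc
RefSeq windows of this kind were at hand for 65 of the 87 called genes. A kappaB match stood in 16 of the 65 (24.6%), in 6.44% of the 13308 tested genes with a window and in 4.51% of all 32851 windows, read on both strands. AP-1 (TGANTCA, both strands) stood in 13 (20.0%), against 6.58% of tested genes and 7.81% of windows. The TATA box (TATAAA, the gene's strand only) stood in 14 (21.5%), against 5.98% and 8.32%. Shares differed less for C/EBP (TTGCNNAA, 15.4% against 10.3% of tested genes), STAT (TTCNNNGAA, 7.69% against 8.33%), CRE (TGACGTCA, 3.08% against 3.21%) and the interferon element ISRE (3.08% against 3.85%), each read on both strands. Genes can have several windows, and these shares are descriptions with no test.

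The listed type I interferon-stimulated genes lay above 0 in log2 fold change without a call. All 26 were tested, with a median of 1.40. In 25 the groups did not overlap, a pattern that 14.5% of all genes tested showed in the higher direction. Ifitm1, an interferon-induced gene that stands in no list, was called higher. With edgeR 0 of the 26 listed genes were called, while 21 were higher at an unadjusted p under 0.05, against 7.92% of all genes tested. Ifit1, which binds foreign RNA, held 69.9, 87.5 and 65.7 CPM in D2C7-IT tumours and 21.5, 26.1 and 6.15 CPM in vehicle tumours (log2 fold change 2.01 ± 0.48, adjusted p = 0.18). Usp18, which restrains the interferon receptor, held 35.9, 45 and 38.6 CPM in D2C7-IT tumours and 12.5, 10.9 and 2.39 CPM in vehicle tumours (adjusted p = 0.2). Vehicle replicate 3 was the lowest tumour in both, and the list summed to 1240, 1430 and 1120 CPM in D2C7-IT tumours and 653, 566 and 210 CPM in vehicle tumours. Without vehicle replicate 3 the median was 1.02. Interferon-gamma targets (20 tested, 0 called with edgeR, 7 higher at an unadjusted p under 0.05) had a median of 0.60, and of 0.25 without vehicle replicate 3.

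Among the listed sensors, receptors and genes of antigen presentation described here, 1 gene rose, Cd40. Toll-like and other pattern receptors (20 tested, 0 called with edgeR, 13 at an unadjusted p under 0.05) had a median of 1.09, or 0.8 without vehicle replicate 3. In that list Clec4e, the Mincle receptor for dead cells and mycobacterial lipid, held 5.56, 10.4 and 6.62 CPM in D2C7-IT tumours and 0.531, 0 and 0.081 CPM in vehicle tumours (edgeR adjusted p = 0.11). IL-1 receptors and inhibitors (10 tested, 0 called, 7 at an unadjusted p under 0.05) had a median of 1.17, with Il1r2, a decoy receptor, at 2.82, 3.68 and 2.15 CPM in D2C7-IT tumours and 0.739, 0.673 and 0.405 CPM in vehicle tumours (adjusted p = 0.059). Cd40, the receptor that the series' other agent engages, rose and held 6.96, 11.2 and 8.71 CPM in D2C7-IT tumours, against 1.5, 1.19 and 0.891 CPM in vehicle tumours (log2 fold change 2.85 ± 0.29, edgeR adjusted p = 0.031). It was the 1 call among 14 tested genes of CD40 and T cell costimulation, and no D2C7-IT tumour came near the vehicle levels. Of the others Tnfsf18, which encodes the GITR ligand, held 0.316, 1.90 and 1.12 CPM in D2C7-IT tumours and a single read in the vehicle tumours, a ratio of 124 (exact 95% interval 21.9 to 4930, edgeR adjusted p = 0.087). MHC class I genes (15 tested, 0 called with edgeR, 2 at an unadjusted p under 0.05) had a median of 0.55 and MHC class II genes (10 tested, 0 called, 0 at an unadjusted p under 0.05) a median of 0.44, and copies of the H2 family share reads. Without vehicle replicate 3 these medians were 0.26 and 0.21. H2-K2, a gene of the H2 family that stands in no list, was called higher. Complement genes (16 tested, 0 called with edgeR, 9 at an unadjusted p under 0.05) had a median of 0.92, or 0.61 without vehicle replicate 3.

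Acute phase proteins, secreted in inflammation, were among the lists of highest median, at 3.70 over the 9 of 18 members tested, and 3 rose: Ptx3, Cp and Hp. The 9 members not tested include the fibrinogen genes and Saa1 and Saa2, products of liver, each under 0.25 CPM in all 6 tumours. They do not enter the median. Ptx3 (chromosome 3, 66219910 to 66225805), a long pentraxin made at the site of inflammation, held 64.6, 83.5 and 82.9 CPM in D2C7-IT tumours, against 2.03, 0.485 and 0.445 CPM in vehicle tumours (log2 fold change 6.17 ± 0.59, edgeR adjusted p = 0.031). Cp, the copper-carrying ferroxidase ceruloplasmin, held 200, 291 and 234 CPM in D2C7-IT tumours, against 38.5, 25.5 and 15.3 CPM in vehicle tumours (log2 fold change 3.15 ± 0.35, adjusted p = 0.034). Both genes kept every D2C7-IT tumour above every vehicle tumour. Lcn2, a siderophore-binding lipocalin, held 193, 202 and 291 CPM in D2C7-IT tumours and 32.1, 4.63 and 0.972 CPM in vehicle tumours, which differed widely among themselves, and it was not called (log2 fold change 4.13 ± 1.12, adjusted p = 0.24).

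Metal-handling genes changed in a few members. Of 17 tested 3 rose (Steap4, Mt2 and Slc39a14), and the median of 0.28 lay close to that of all genes. Steap4 (chromosome 5, 7960457 to 7982213), which reduces iron and copper at the membrane and is induced in reactive astrocytes, held 131, 140 and 135 CPM in D2C7-IT tumours, against 1.41, 0.62 and 0.486 CPM in vehicle tumours. The D2C7-IT tumours lay within a narrow band, and the log2 fold change was 7.22 ± 0.37 (edgeR adjusted p = 0.0056). Mt2, a metallothionein, held 211, 185 and 249 CPM in D2C7-IT tumours, against 76.5, 63.6 and 55.8 CPM in vehicle tumours (log2 fold change 1.67 ± 0.16, adjusted p = 0.031), and Slc39a14, a zinc and iron importer, had a log2 fold change of 0.78 ± 0.11 (adjusted p = 0.049). The relatives Steap1, Steap2 and Steap3 were not called, with log2 fold changes of -0.75, 0.16 and 0.29. The Steap4 window (GRCm38.p6, plus strand, chr5:7960222-7960521) is shown because its kappaB matches, in capitals at bases -250 to -241 and -226 to -217, lie far from the start compared with those of the chemokines, beside a STAT match (TTCNNNGAA) at -116 to -108.
Steap4: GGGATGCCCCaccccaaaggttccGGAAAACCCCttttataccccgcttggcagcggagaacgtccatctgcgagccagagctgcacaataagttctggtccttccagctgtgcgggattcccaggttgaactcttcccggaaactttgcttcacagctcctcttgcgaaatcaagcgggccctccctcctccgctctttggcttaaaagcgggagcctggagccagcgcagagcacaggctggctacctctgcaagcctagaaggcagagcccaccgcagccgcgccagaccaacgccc

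Among astrocyte genes 4 pan-reactive genes rose and no general marker was called. The 12 general astrocyte markers had a median log2 fold change of -0.06 (-0.10 without vehicle replicate 3) with 0 called by edgeR (2 higher and 1 lower at an unadjusted p under 0.05), and they summed to 5950, 4660 and 5520 CPM in D2C7-IT tumours and 5260, 4980 and 4860 CPM in vehicle tumours. The 13 pan-reactive genes, induced in astrocytes by many injuries, had a median of 2.31 and 4 rose (Steap4, Cp, Osmr and S1pr3). S1pr3, a receptor for sphingosine 1-phosphate, held 55.4, 57.6 and 73.7 CPM in D2C7-IT tumours, against 20.6, 14.2 and 10.1 CPM in vehicle tumours (log2 fold change 2.01 ± 0.27, edgeR adjusted p = 0.048). Gfap, the filament protein of reactive astrocytes, held 2310, 1330 and 1730 CPM in D2C7-IT tumours and 1100, 883 and 390 CPM in vehicle tumours, which did not overlap but were not called (log2 fold change 1.13 ± 0.38, adjusted p = 0.35). Genes linked to inflammation-associated (A1) reactivity had a median of 0.53 over 11 tested (0.30 without vehicle replicate 3), with Srgn, a proteoglycan also made by blood cells, called (log2 fold change 1.40 ± 0.18, adjusted p = 0.042), and genes linked to ischaemia-associated (A2) reactivity a median of 1.13 over 12, with Ptx3 called. Several of these genes are also made by vessel and immune cells, and some stand in more than 1 list.

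Among vessel genes Selp and Vwf rose. Endothelial markers (15 tested, 0 called with edgeR, 8 at an unadjusted p under 0.05) had a median of 0.35, and they summed to 481, 450 and 484 CPM in D2C7-IT tumours and 409, 355 and 347 CPM in vehicle tumours. Of 16 genes of endothelial activation and leukocyte adhesion, with a median of 1.01 (0.72 without vehicle replicate 3), 1 rose. Selp (chromosome 1, 164115264 to 164150026), the P-selectin on which leukocytes roll, held 18.4, 16.3 and 8.43 CPM in D2C7-IT tumours, against 0.393, 0.189 and 0 CPM in vehicle tumours (log2 fold change 6.00 ± 0.75, edgeR adjusted p = 0.042). Sele, which encodes E-selectin, held 9.65, 7.03 and 3.81 CPM in D2C7-IT tumours and 0.277, 0 and 0.081 CPM in vehicle tumours (adjusted p = 0.064, not called). Icam1, the ligand of leukocyte integrins, held 69.7, 153 and 147 CPM in D2C7-IT tumours and 14.1, 7.38 and 3.40 CPM in vehicle tumours (adjusted p = 0.061, not called). In all 3 genes the groups did not overlap. Vwf, the platelet-binding protein of endothelium, was the 1 call among 15 coagulation genes and held 132, 116 and 130 CPM in D2C7-IT tumours, against 47.3, 45.2 and 31.1 CPM in vehicle tumours (log2 fold change 1.57 ± 0.15, adjusted p = 0.031).

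Matrix proteases and their inhibitors gave 2 calls among 18 of 21 tested, with a median of 0.96. Mmp3 (chromosome 9, 7445822 to 7455975), stromelysin 1, which cleaves matrix and activates other proteases, held 7.43, 9.89 and 3.18 CPM in D2C7-IT tumours, against 0.0693, 0 and 0 CPM in vehicle tumours, a ratio of 255 (86.9 to 1240) from 857 and 3 reads (edgeR adjusted p = 0.034). Adamts1, which cleaves proteoglycans, held 46.7, 40.2 and 47.0 CPM in D2C7-IT tumours, against 17.5, 12.6 and 14.9 CPM in vehicle tumours (log2 fold change 1.52 ± 0.15, adjusted p = 0.031). Timp1, an inhibitor of these proteases, held 46.9, 54.4 and 56.7 CPM in D2C7-IT tumours and 6.35, 2.59 and 1.09 CPM in vehicle tumours (adjusted p = 0.059, not called).

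Markers of most other cell types gave 0 calls with edgeR. Monocyte and macrophage markers (15 of 16 tested, 8 higher at an unadjusted p under 0.05) had a median of 1.65. Ccr2, the receptor by which monocytes enter tissue, held 14.0, 15.5 and 17.0 CPM in D2C7-IT tumours and 6.33, 2.15 and 1.05 CPM in vehicle tumours (adjusted p = 0.24). That list summed to 464, 591 and 811 CPM in D2C7-IT tumours and 520, 219 and 138 CPM in vehicle tumours, so vehicle replicate 1 lay among the D2C7-IT tumours. T cell markers (14 tested, 0 at an unadjusted p under 0.05) had a median of 0.50 and summed to 34.0, 49.2 and 19.3 CPM in D2C7-IT tumours and 34.9, 29.7 and 6.36 CPM in vehicle tumours. Homeostatic microglia markers (12 tested, 0 at an unadjusted p under 0.05) had a median of 0.25, erythroid markers (6 of 8 tested, 1 lower at an unadjusted p under 0.05) of -0.66, oligodendrocyte markers (12 tested, 4 higher) of 0.27, skeletal muscle markers (10 tested, 0) of -0.41 and neuron markers (13 tested, 0) of -0.20. Without vehicle replicate 3 the median was 1.46 for monocyte and macrophage, 0.23 for T cell, -0.01 for microglia, 0.04 for erythroid, 0.05 for oligodendrocyte, -0.21 for skeletal muscle and -0.11 for neuron markers.

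**Figure D4:**
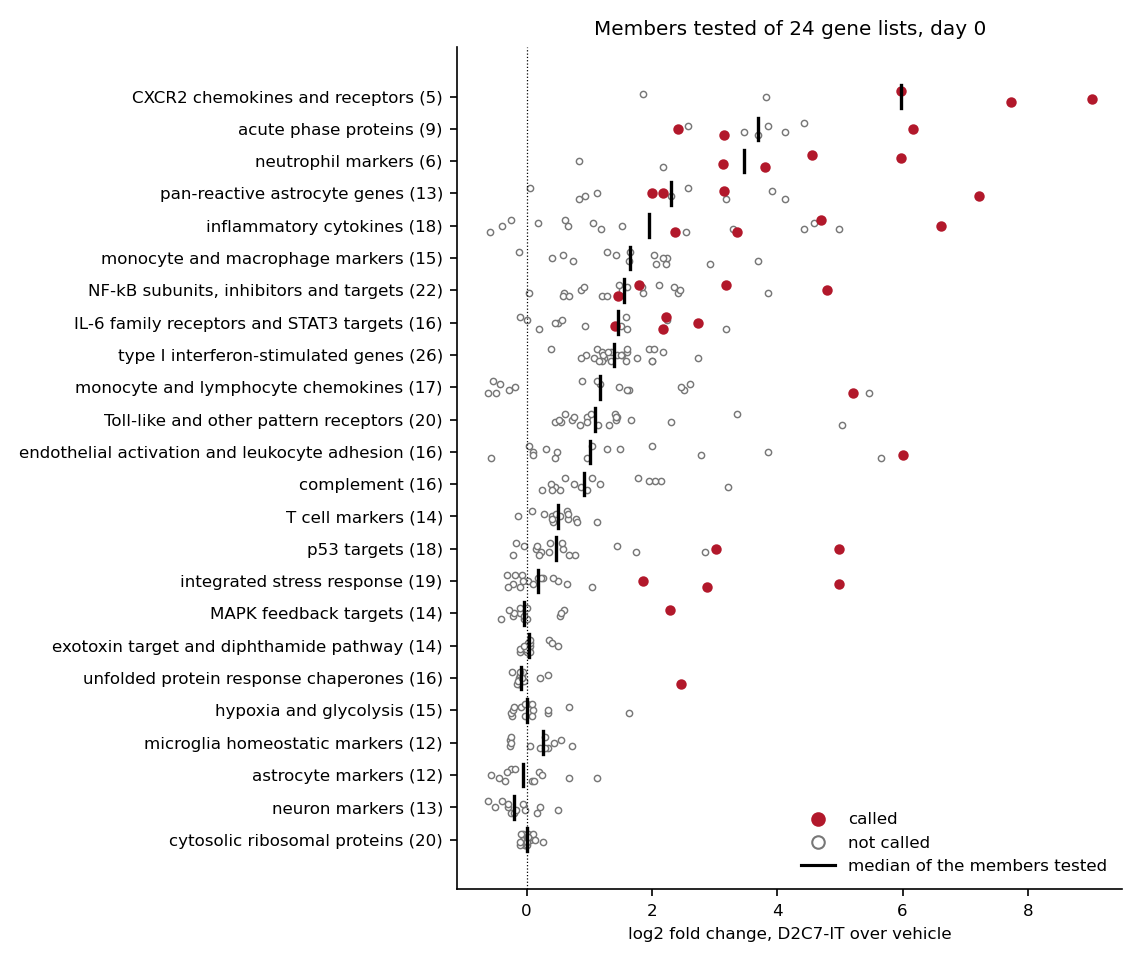
Each row is 1 of 24 gene lists, with the number of members tested in brackets, and each point is the log2 fold change of a member, D2C7-IT over vehicle. Filled points were called, open points were not, and bars mark medians, which reach 5.98 in the CXCR2 list and lie near 0 in the ribosomal, chaperone and toxin-target lists. Medians cover only members that passed the filter on read counts, some of them through the D2C7-IT group alone.

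The target of the toxin and its route showed no call. Egfr (chromosome 11, 16752203 to 16918158), whose reads join the mouse gene and the transduced mouse variant, held 28.2, 47.0 and 35.9 CPM in D2C7-IT tumours and 49.6, 16 and 17.0 CPM in vehicle tumours, which overlapped (log2 fold change 0.38 ± 0.47, edgeR adjusted p = 0.83). In vehicle tumours of day 3 Egfr held 12.9, 289 and 357 CPM. The share of tumour cells in each library was not tested. Eef2, the elongation factor that the toxin inactivates as a protein, held 1410, 1180 and 1180 CPM in D2C7-IT tumours and 1350, 1380 and 1180 CPM in vehicle tumours (log2 fold change -0.10 ± 0.12, adjusted p = 0.82). Among 14 genes of toxin entry and diphthamide synthesis 0 were called by edgeR, and the median was 0.05. At an unadjusted p under 0.05, 2 of the 14 were higher, against 7.92% of all genes tested. Ribosomal protein genes (20 tested, 0 called, 0 at an unadjusted p under 0.05) had a median of 0.01, which turned to -0.08 without vehicle replicate 3. Of 13 EGF receptor family members and ligands 1 rose, Ereg. Hbegf, a ligand that is also a known early wound gene, held 39.3, 58.9 and 55.0 CPM in D2C7-IT tumours and 14.8, 20.0 and 8.71 CPM in vehicle tumours (adjusted p = 0.085, not called). MAPK feedback genes, which follow receptor signalling, had a median of -0.04 over 14, which turned to 0.14 without vehicle replicate 3, and 1 rose. That was Ier3, a stress-induced survival gene, at 44.4, 53.6 and 54.8 CPM in D2C7-IT tumours, against 10.3, 9.48 and 10.4 CPM in vehicle tumours (log2 fold change 2.29 ± 0.13, adjusted p = 0.0056), while the feedback phosphatase gene Dusp6 had a log2 fold change of -0.10 and Spry4, an inhibitor of receptor signalling, of 0.00.

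Stress and death genes changed in single members. Of 20 immediate early and AP-1 genes, with a median of 0.44, 3 rose: Maff, Atf3 and Jun. Maff, a small Maf transcription factor, held 25.2, 49.8 and 37.8 CPM in D2C7-IT tumours, against 4.44, 3.58 and 2.43 CPM in vehicle tumours (log2 fold change 3.38 ± 0.33, edgeR adjusted p = 0.031). Jun, an AP-1 subunit, held 126, 139 and 118 CPM in D2C7-IT tumours, against 66.7, 49.7 and 50.5 CPM in vehicle tumours (log2 fold change 1.15 ± 0.14, adjusted p = 0.035). Fos, its partner, held 69.9, 89.8 and 53.4 CPM in D2C7-IT tumours and 30.7, 34.0 and 59.5 CPM in vehicle tumours, which overlapped (log2 fold change 0.72 ± 0.32, adjusted p = 0.48). The integrated stress response list (19 of 20 tested, median 0.18) had 3 members that rose: Gdf15, Atf3 and Ppp1r15a. Gdf15 (chromosome 8, 70629393 to 70632456), a stress-induced hormone, held 2.77, 8.97 and 8.37 CPM in D2C7-IT tumours, against 0.162, 0.215 and 0.243 CPM in vehicle tumours (log2 fold change 4.98 ± 0.57, adjusted p = 0.034). Ppp1r15a, the GADD34 phosphatase subunit that restores translation, held 40.6, 69.3 and 53.9 CPM in D2C7-IT tumours, against 13.5, 15.0 and 15.3 CPM in vehicle tumours (log2 fold change 1.86 ± 0.21, adjusted p = 0.034). The groups were separate in both. Not called were the amino acid response targets Asns (log2 fold change -0.10), Chac1 (-0.21) and Trib3 (-0.07), nor Atf4 itself (0.64 ± 0.11, adjusted p = 0.077). The list of unfolded protein response chaperones had a median of -0.09 over 16 (-0.14 without vehicle replicate 3), with Hspa5, the chief chaperone, at -0.12. Its 1 call was Creb3l1, a membrane-bound transcription factor and no chaperone, at 17.6, 21.5 and 12.7 CPM in D2C7-IT tumours, against 3.44, 3.42 and 2.19 CPM in vehicle tumours (log2 fold change 2.46 ± 0.26, adjusted p = 0.034).

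Among 18 targets of p53 (median 0.48) Fas and Gdf15 rose. Among 20 death receptor and lytic death genes (median 0.94, or 0.68 without vehicle replicate 3) Fas and Tnfrsf12a rose. Fas, the receptor of Fas ligand, held 16.9, 24.2 and 19.8 CPM in D2C7-IT tumours, against 2.45, 2.72 and 2.11 CPM in vehicle tumours (log2 fold change 3.02 ± 0.19, edgeR adjusted p = 0.0073). Tnfrsf12a, the TWEAK receptor, held 29.5, 38.5 and 37.9 CPM in D2C7-IT tumours, against 10.3, 7.97 and 5.55 CPM in vehicle tumours (log2 fold change 2.10 ± 0.24, adjusted p = 0.034). Neither gene overlapped between the groups. The p53 targets Cdkn1a, a cell cycle inhibitor, and Mdm2, which degrades p53, were not called, with log2 fold changes of 0.77 ± 0.23 (adjusted p = 0.29) and 0.36 ± 0.08 (adjusted p = 0.14). Cell cycle genes (18 tested, 0 called with edgeR, 2 higher at an unadjusted p under 0.05) had a median of 0.44, and of 0.06 without vehicle replicate 3. Hypoxia and glycolysis genes (15 tested, 0 called, 3 higher and 1 lower at an unadjusted p under 0.05) had a median of 0.00. Over all genes tested 7.92% were higher and 2.97% lower at that unadjusted p.

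Of the 87 called genes 44 stood in a list and 43 did not. Grin2c (chromosome 11, 115249169 to 115267243), 1 of the 43, held 36.3, 43.2 and 39.3 CPM in D2C7-IT tumours, against 91.7, 77.5 and 69.2 CPM in vehicle tumours, so every D2C7-IT tumour was below every vehicle tumour (log2 fold change -1.05 ± 0.13, edgeR adjusted p = 0.035). With all 24 libraries its adjusted p was 1. Others of the 43, chosen here after their values were seen, were Gadd45b, a stress gene, at 128, 276 and 232 CPM in D2C7-IT tumours, against 17.0, 14.4 and 20.3 CPM in vehicle tumours (log2 fold change 3.57 ± 0.34, adjusted p = 0.031). Gch1, the first enzyme of tetrahydrobiopterin synthesis, held 15.1, 22.1 and 14.8 CPM in D2C7-IT tumours, against 2.19, 2.56 and 2.02 CPM in vehicle tumours (log2 fold change 2.89 ± 0.22, adjusted p = 0.013). Vehicle tumours lay close together in both genes. Cyp1b1, an oxidase of steroids and foreign compounds, had a log2 fold change of 3.14 ± 0.32, Ccrl2, an atypical receptor that binds chemerin, of 3.10 ± 0.27, Tnc, which encodes the matrix protein tenascin C, of 2.32 ± 0.30, and Hif1a, the oxygen-regulated transcription factor, of 0.79 ± 0.09. Il21, a cytokine of helper T cells, held 1.66, 4.31 and 1.75 CPM in D2C7-IT tumours, against 0.0693, 0.135 and 0.081 CPM in vehicle tumours (adjusted p = 0.037), while 0 of the 14 T cell markers were called. The kit did not mark strand, so a gene's reads and those of any antisense or overlapping gene cannot be told apart.

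The same D2C7-IT tumours were set against day 0 tumours of the other treated groups, to ask where D2C7-IT differs from the CD40 antibody (aCD40) and from both agents together. The labels give aCD40 doses as a range, not tumour by tumour. Fits used the 12 day 0 libraries, and since both comparisons share the D2C7-IT tumours with the comparison above, high values there carry over. Against aCD40 edgeR called 0 of 20735 genes (0.0%), with 1366 at an unadjusted p under 0.05, while DESeq2 called 223. All D2C7-IT tumours lay above all aCD40 tumours in 8.58% of genes and below in 4.26%. Against D2C7-IT+aCD40 edgeR also called 0 (0.0%), with 1449 at an unadjusted p under 0.05 and 93 by DESeq2. The groups did not overlap in 10.2% of genes in the higher and 4.29% in the lower direction. Without D2C7-IT+aCD40 replicate 2 the second count was 22.

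The combination tumours, whose labels give the same D2C7 dose, were far apart from each other in some genes that D2C7-IT tumours held high, such as Cxcl1, Steap4, Ptx3 and Tnfaip2, and close together in others, such as Lrg1, at 8.20, 9.33 and 7.35 CPM. Cxcl1 held 0.861, 25.1 and 0.852 CPM in D2C7-IT+aCD40 tumours, and 0.666, 0.503 and 0.521 CPM in aCD40 tumours. The log2 fold change of D2C7-IT was 2.68 ± 1.05 over the combination (edgeR adjusted p = 0.7) and 6.64 ± 1.31 over aCD40 (adjusted p = 0.25). Steap4 held 2.84, 54.8 and 6.77 CPM in D2C7-IT+aCD40 tumours and 0.717, 2.45 and 9.90 CPM in aCD40 tumours. Replicate 2 of the combination was also the highest of its group in Ptx3, at 2.61, 44.0 and 1.08 CPM, and in Tnfaip2, at 7.70, 111 and 14.7 CPM. In Cxcl1 and Steap4 all D2C7-IT tumours lay above all 6 tumours of these groups. Vwf, by contrast, held 105, 121 and 104 CPM in aCD40 tumours, close to its D2C7-IT levels (log2 fold change of D2C7-IT over aCD40 0.16 ± 0.18, adjusted p = 1).

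**Figure D5:**
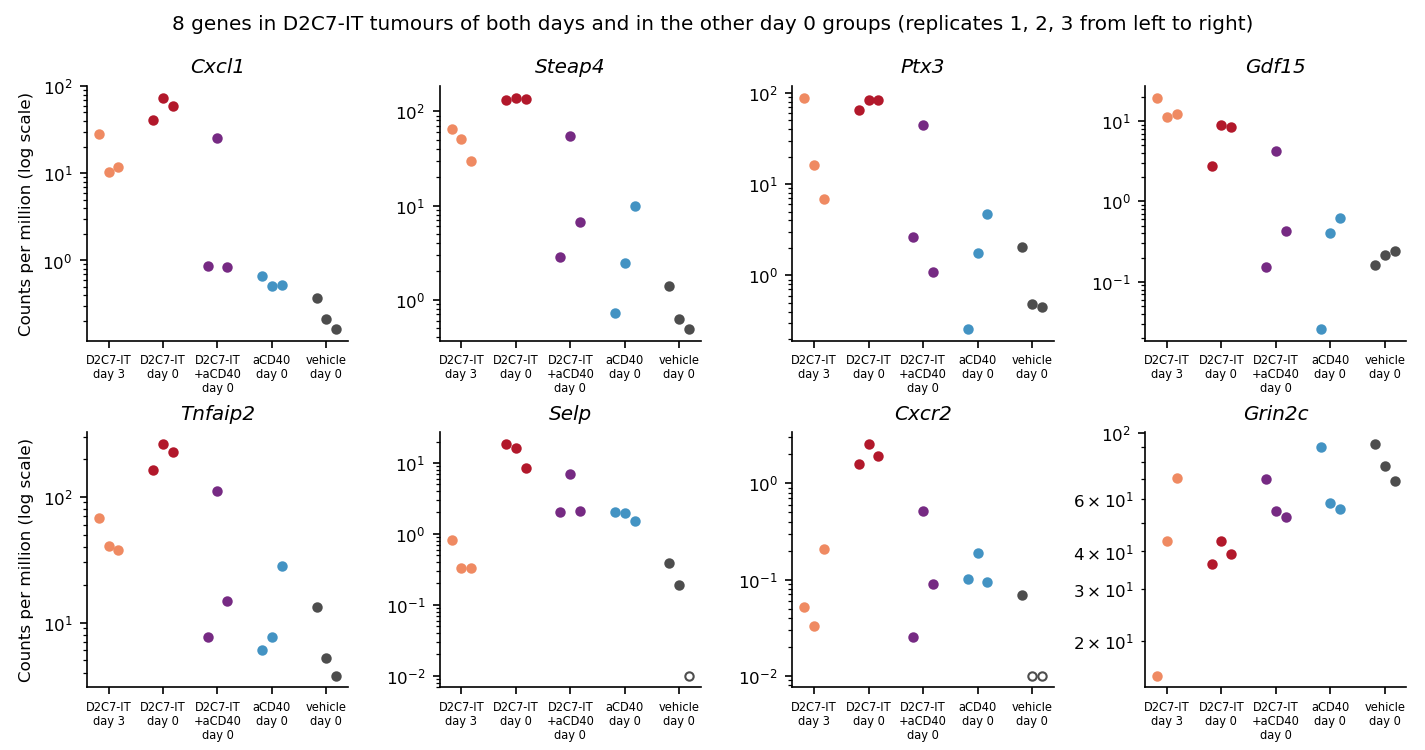
CPM of 8 genes on log axes in the 3 tumours (replicates 1 to 3 from left to right) of D2C7-IT day 3, D2C7-IT day 0, D2C7-IT+aCD40 day 0, aCD40 day 0 and vehicle day 0, with tumours without a count as open points. Replicate 2 of the combination lies above its 2 group mates in 7 of the 8 panels, and Selp and Cxcr2 are low in all D2C7-IT day 3 tumours.

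D2C7-IT tumours taken 3 days after the pumps came out were set against those taken at day 0, from different mice, in a fit of these 6 libraries. Since the day 0 tumours are those compared with vehicle above, high values there can carry over as lower levels at day 3. With edgeR 37 of 19930 genes were called (0.186%), 36 lower (0.181%) and 1 higher (0.00502%) at day 3, and 1335 had an unadjusted p under 0.05. The days did not overlap in 4.1% of genes in the higher and 7.75% in the lower direction. The call count was 1 with 24 libraries and 380 with DESeq2. It was 0 without day 3 replicate 1 or 2 and without day 0 replicate 1 or 3, 1 without day 0 replicate 2, and 48 without day 3 replicate 3. Tnf held 0.568, 0.561 and 0.561 CPM at day 3, against 13.8, 29.4 and 12.3 CPM at day 0 (log2 fold change -4.99 ± 0.42, adjusted p = 0.026). Selp held 0.826, 0.33 and 0.333 CPM at day 3, against 18.4, 16.3 and 8.43 CPM at day 0 (log2 fold change -4.79 ± 0.52, adjusted p = 0.038). Both genes fell, and no day 3 tumour reached a day 0 level.

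Among the 36 genes that fell were also Slfn4 (log2 fold change -4.32 ± 0.33, edgeR adjusted p = 0.02), an interferon-induced gene, Acod1 (-3.60 ± 0.34, adjusted p = 0.03), the enzyme that makes itaconate, and Clec4e (-3.50 ± 0.37, adjusted p = 0.035). Lag3, an inhibitory receptor of T cells, was the gene that rose, at 39.9, 39.6 and 39.5 CPM at day 3, against 12.3, 12 and 13.5 CPM at day 0 (log2 fold change 1.69 ± 0.11, adjusted p = 0.016). High day 3 levels of Lag3 were not particular to D2C7-IT. They ran from 22.1 to 34.0 CPM in vehicle, 28.2 to 49.6 CPM in aCD40 and 32.9 to 39.1 CPM in D2C7-IT+aCD40 tumours. Day 0 means were 18.6 CPM in aCD40 and 14.1 CPM in D2C7-IT+aCD40 tumours. At day 0 the log2 fold change of D2C7-IT was -0.58 ± 0.15 over aCD40 and -0.18 ± 0.15 over the combination (edgeR adjusted p = 0.33 and 0.81). The part of low day 0 levels in the difference between days was not tested. The T cell gene Cd3d held 0.516, 1.02 and 0.873 CPM in D2C7-IT day 3 tumours, and the cell source of Lag3 was not tested. Several genes that D2C7-IT tumours held high at day 0 were not called between the days. Steap4 held 65.7, 51.5 and 29.6 CPM at day 3 (log2 fold change -1.41 ± 0.30, adjusted p = 0.23), and Cxcl1 held 28.5, 10.4 and 11.7 CPM (log2 fold change -1.72 ± 0.46, adjusted p = 0.41). Gdf15 held 19.6, 11.1 and 12.3 CPM at day 3, all above its day 0 tumours (log2 fold change 1.14 ± 0.48, adjusted p = 0.76). Cxcr2 held 0.0516, 0.033 and 0.208 CPM at day 3, all below its day 0 tumours (log2 fold change -4.19 ± 0.58, adjusted p = 0.062), and Grin2c held 15.3, 43.3 and 70.6 CPM, on both sides of them.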

How the data were processed

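The authors deposited raw counts of reads per Ensembl gene as whole numbers, in 6 tables of 36 columns and 49315 genes. Of the columns 12 repeat another column and 0 differ from it. The submitters' processing notes name STAR 2.5.2b, Trimmomatic 0.36, bcl2fastq 2.17 and, from Subread 1.5.2, featureCounts, with GRCm38. Annotation release and strand setting of the counting were not given in the sources used here. Libraries were made with a kit that does not mark strand, per the labels' protocols. GENCODE M21 supplied symbols and positions for 48970 genes.

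Genes were filtered by filterByExpr, scaled by TMM (factors 0.951 to 1.038) and tested with edgeR 4.0.16 in R 4.3.3 (glmQLFit, robust, and glmQLFTest, 1 mean per group). The scripts were checked on simulated data. Replicates differed by more than sampling noise (chi-square per degree of freedom of at least 40.19). Replicates are separate tumours. The p-values set the difference between groups against the spread between tumours, which edgeR estimates with information shared over genes.

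The 58 gene lists, the samples and the choice to fit only the 6 libraries compared were made with earlier results of these data known, including the counts of 87 calls with 6 and 18 with 24 libraries. Named genes are the called genes at both ends of the log2 fold change (at most 12 each), required to average 1 CPM or more in the higher group, not to overlap and to have no predicted name, then from each list the members with the smallest p (at most 4), and Egfr, Eef2, Cd40, Cxcl1, Cxcl2, Cxcr2, Gfap and Gapdh. In the other comparisons the rule takes up to 5 genes in each direction. Further members named in the text were chosen after their values were seen. Gapdh, a usual reference gene, had a log2 fold change of -0.15 ± 0.10 (edgeR adjusted p = 0.64). Intervals for ratios of reads are exact 95% intervals and, like the floor of 3 reads, cover counting error only. DESeq2 1.42.0, other scalings and filters, other sets of libraries and leaving out each library were tried as alternatives. Promoter windows came from RefSeq for GRCm38.p6.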

Additional observations from a re-analysis of the deposited data

How the results depend on the processing

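For D2C7-IT against vehicle, 87 genes were called, 85 with DESeq2's size factors in edgeR, 78 with a filter of at least 1 CPM in 3 libraries, 89 without robust fitting, 153 without a filter and 685 with DESeq2. The count was 18 with all 24 libraries, 10 with 12 and 0 to 312 when 1 library was left out. Correlations of deviations were -0.263, 0.156 and 0.419 between same-numbered tumours and ran from -0.59 to 0.532 between the others. These are too few to show whether replicate numbers pair the tumours. With a replicate block edgeR called 0 genes, with 2016 at an unadjusted p under 0.05. Against aCD40, where 0 were called, the count was 2 with the 6 libraries compared, 223 with DESeq2, 1 without a filter, 2 with the 1 CPM filter, 0 with the replicate block and 0 to 1 when 1 library was left out. Against the combination it was 93 with DESeq2 and 0 to 22 when 1 library was left out. For day 3 against day 0 of D2C7-IT, 37 became 1 with all 24 libraries, 380 with DESeq2, 123 without a filter, 0 with the replicate block and 0 to 48 when 1 library was left out. The causes were not tested. A fit that leaves 2 tumours in a group rests more on the other group's spread.

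Some single genes that were not called changed sign when 1 library was left out, and their log2 fold changes of D2C7-IT over vehicle then ran as follows. Aqp1 ran from -2.04 to 0.77 and Cxcl9 from -1.0 to 0.57, each above 0 without vehicle replicate 1. Pax5 ran from -0.19 (without vehicle replicate 2) to 1.26. Cd79b ran from -0.14 to 1.45, with -0.04 and -0.05 without D2C7-IT replicate 3 and vehicle replicate 2. Hdc ran from -0.78 (without D2C7-IT replicate 1) to 1.77, with -0.31 without vehicle replicate 1 or 3. Without vehicle replicate 3, Hbb-bs, otherwise down to -1.14, was at 0.10, and Kit, otherwise down to -0.24, at 0.02. Grin2c in day 3 over day 0 was at -0.08 with the replicate block and ran from -0.38 (without day 3 replicate 3) to 0.53. Over all alternatives 3107 values of single genes kept direction and side of the threshold, 357 lost a call, 151 gained one and 13 changed sign. The tally includes genes without a call in the main fit, which could not lose one, so it does not measure how stable the calls were. Of list medians 764 stayed within the spread between replicates and 48 moved beyond it. Low counts in vehicle libraries limit the size of the largest fold changes.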

Other observations

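Angptl4, a secreted inhibitor of lipoprotein lipase induced by glucocorticoids and by PPAR factors, rose in D2C7-IT tumours at day 0. It held 31.2, 34.9 and 23.3 CPM in D2C7-IT tumours, against 1.78, 3.15 and 2.47 CPM in vehicle tumours (log2 fold change 3.55 ± 0.26, edgeR adjusted p = 0.013). Glucocorticoid-responsive genes had a median log2 fold change of 0.09 over 15 tested, with Angptl4 and Nfkbia called and 3 genes higher and 3 lower at an unadjusted p under 0.05. PPAR and lipid genes had a median of 0.13 over 15 (0.05 without vehicle replicate 3), with Angptl4 called and 3 higher at an unadjusted p under 0.05. Over aCD40 tumours, at 6.61, 7.54 and 5.28 CPM, the log2 fold change of D2C7-IT was 2.17 ± 0.36 (adjusted p = 0.13).

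Choroid plexus and ependymal markers, 10 genes, summed to 120, 59.1 and 757 CPM in D2C7-IT tumours and 58.6, 58.0 and 543 CPM in vehicle tumours, so replicate 3 of each group stood above the rest. In day 3 tumours outside the comparisons above, Cxcl1 held 2.27, 23.4 and 22.6 CPM in D2C7-IT+aCD40 tumours, 0.174, 0.532 and 0.292 CPM in aCD40 tumours and 0.133, 0.286 and 0.0802 CPM in vehicle tumours. Steap4 held 15.2, 80.8 and 114 CPM in D2C7-IT+aCD40 day 3 tumours, 1.53, 1.98 and 2.23 CPM in aCD40 day 3 tumours and 1.33, 2.76 and 1.52 CPM in vehicle day 3 tumours. Slfn4 ran otherwise, at 1.78, 4.53 and 3.56 CPM in D2C7-IT+aCD40 day 3 tumours, 109, 0.651 and 0.451 CPM in aCD40 day 3 tumours and 0.934, 41.3 and 61.5 CPM in vehicle day 3 tumours.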
